A study of Rattus norvegicus with 12 samples.

Results

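The step from 48h to 168h of liver regeneration was examined in 4 small RNA libraries of rat liver, the 2 titled 48h_PH1 and 48h_PH2 and the 2 titled 168h_PH1 and 168h_PH2, out of 12 libraries in the series. All came from Fischer-344 rats, an inbred strain, and both groups had undergone partial hepatectomy, in which some liver lobes are cut away and the remnant regrows, so no treatment, strain or tissue separates them other than the time since surgery. The remaining 8 libraries, 6 of sham-operated normal liver (pre_PH) and 2 at 24h after hepatectomy, served to estimate the spread between libraries and as reference levels. The libraries were selected by title alone and every piRNA name listed in them entered the description, 584 of the 701 names listed in the series. A name missing from a library was taken as 0 reads. The labels gave neither the age nor the sex of the rats, nor how many animals stand behind the 2 libraries of a time, so a p-value here reflects spread among libraries that could be technical. The tables named piRNAs only, so the labelled tissue was not checked against marker genes, and in RNA from whole liver fewer cells of a type and less RNA per cell cannot be told apart.

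PIWI-interacting RNAs (piRNAs) are small RNAs that guide PIWI proteins, a branch of the Argonaute family, to matching transcripts, and are best known for silencing transposons in the germ line. In the regenerating rat liver, the cells of the remnant leave rest, pass through DNA synthesis and division within the first days, and return to rest as the mass is restored, so the step compared here runs from the proliferating remnant to the regrown organ. No function is established here for any single piRNA named below. Each is identified by its name in the authors' tables, and its sequence and genome position were not analysed here, so whether a name also collects reads of other small RNAs was not tested.

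Among the 4 libraries, depth was greatest in 48h replicate 2. The authors' library totals were 20741811 and 31467460 reads at 48h and 31017569 and 27466978 at 168h, of which 120844, 251665, 126418 and 146887 were assigned to listed piRNAs. At 168h a count of 0 allows up to 3 reads, which is 0.0967 and 0.109 RPM (reads per 1000000 library reads) in replicates 1 and 2. Such limits and the 95% intervals below cover counting error only, since copies made by PCR are not independent molecules. Replicates at 168h differed more from each other than those at 48h did. Among the 60 tested piRNAs listed in all 12 libraries, the median absolute log2 ratio of one replicate to the other was 1.37 at 168h, 0.82 at 48h and 0.74 at 24h, on normalised CPM + 1. At 168h 42 of the 60 differed by more than 2-fold between the replicates, against 24 at 48h and 16 at 24h.

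From 48h to 168h, 13 piRNAs rose and 17 fell among 80 tested (edgeR quasi-likelihood test, Benjamini-Hochberg adjusted p under 0.05). These are 16.2% and 21.2% of the tested piRNAs, 37.5% in all, and 37 had an unadjusted p under 0.05. Without the 48h libraries 62 of the 80 would have been tested, among them all 13 rises but only 5 of the 17 falls. Entry through the 48h libraries favours a fall, so the number of falls is not set against that of rises. Entry through the 168h libraries favours a rise in the same way. Which rises would have been tested without the 168h libraries was not checked. Values are normalised CPM, the reads of a piRNA per 1000000 piRNA reads of its library after scaling by the TMM factor, so a level is relative to the other piRNAs. Of the 30, 6 passed with each of 5 other scalings and with any of the 12 libraries left out, the rises of rno_piR_000746, rno_piR_002302, rno_piR_000324, rno_piR_032799 and rno_piR_019160 and the fall of rno_piR_031043. In all 30 called piRNAs the 2 libraries at 168h lay on one side of both 48h libraries, which was also true of 47 of the 80 tested (58.8%).

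The balance of rises and falls moved with scaling and with single libraries. Median log2 fold change over all 80 was 0.01 with TMM, -0.54 with the piRNA total, -0.58 with DESeq2 size factors, -0.90 with the upper quartile and -1.17 with the authors' library total. All 13 rises and all 17 falls kept their direction in each of these scalings and with TMM computed without the 10 most abundant piRNAs. The numbers that rose and fell were 7 and 17 with the piRNA total, 8 and 22 with the upper quartile, and 7 and 26 with the authors' library total. Leaving out 168h replicate 1 gave 15 rises and 1 fall. Leaving out 48h replicate 1 gave 17 rises and 3 falls, and leaving out 48h replicate 2 gave 10 rises and 9 falls. With pre_PH replicate 4 left out there were 8 rises and 26 falls, again among 80 tested. Without 168h replicate 1 the piRNAs tested were 108, and without 48h replicates 1 and 2 they were 88 and 98.

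**Figure D1:**
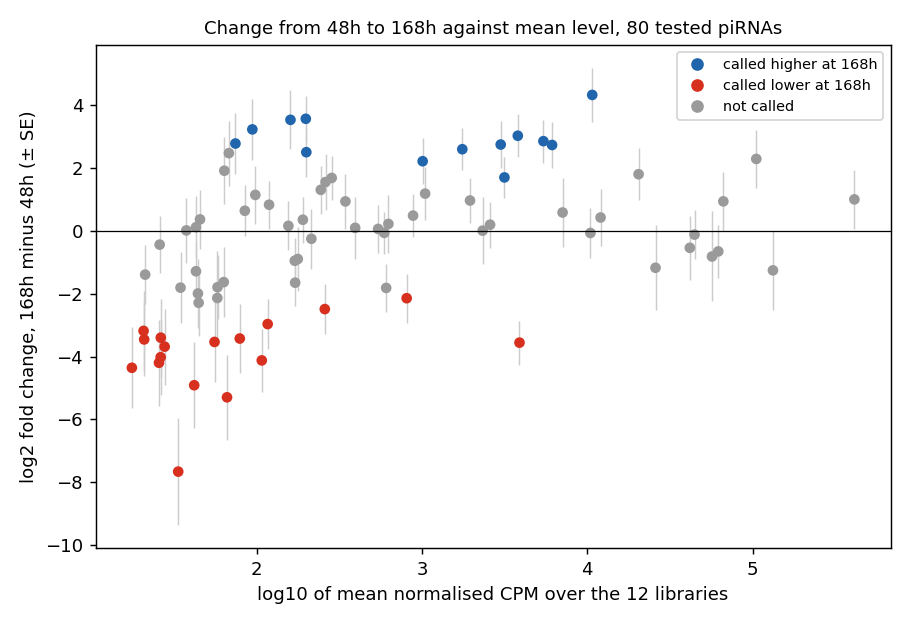
Log2 fold change from 48h to 168h (vertical axis, ± SE) against the log10 of the mean normalised CPM over the 12 libraries (horizontal axis), for the 80 tested piRNAs. The 17 falls (red) sit mostly at low mean levels, with rno_piR_031043 as the one at a high level. Of the 30 piRNAs with a mean under 100 CPM, 13 would have been tested without the 48h libraries. The same holds for 1 of the 12 falls among the 30, so entry to the test favoured falls at low levels. The 13 rises (blue) run from low to high levels, and the most abundant species on the right were not called (grey).

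The largest rise was in rno_piR_000746, which held 0.120% and 0.268% of piRNA reads at 48h and 3.32% and 1.81% at 168h. It stood at 797 and 1870 normalised CPM in the 48h libraries and at 39448 and 13929 at 168h. Both 168h libraries were far above both 48h libraries, although they differed from each other by more than 2-fold. The log2 fold change was 4.32 ± 0.87 (SE, edgeR adjusted p = 0.0017). Relative to all reads of the library, its level went from 6.99 and 21.4 to 135 and 97.0 RPM, a ratio of means of 8.18.

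The second largest, rno_piR_002302, was a low-abundance species with 10 and 15 reads at 48h and 77 and 81 at 168h. Its levels were 54.9 and 41.6 normalised CPM, then 724 and 424. The log2 fold change was 3.56 ± 0.73 (SE, edgeR adjusted p = 0.0017), and in RPM the ratio of means was 5.66. In RPM the replicates were close at both times, 0.482 and 0.477 against 2.48 and 2.95, but they lay further apart in normalised CPM.

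The other 3 rises that passed in all these settings were of piRNAs of intermediate abundance. The level of rno_piR_000324 was 1066 and 602 normalised CPM at 48h and 8281 and 5267 at 168h (log2 fold change 3.02 ± 0.69, edgeR adjusted p = 0.0034). For rno_piR_032799 the values were 1807 and 935, then 11533 and 8238 (2.85 ± 0.69, edgeR adjusted p = 0.0044). For rno_piR_019160 they were 1659 and 794, then 10612 and 5795 (2.74 ± 0.74, edgeR adjusted p = 0.0078). In each of the 3 the lower 168h library was over 3 times the higher 48h library. In RPM their ratios of means were 4.004, 3.65 and 3.24.

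The other 8 rises depended on a setting or a library. Those of rno_piR_000575 (33.0 and 19.4, then 451 and 157 normalised CPM, log2 fold change 3.53) and rno_piR_000127 (5.49 and 27.7, then 263 and 94.2, 3.22) rested on 13 and 11 reads at 48h. The first was lost without 48h replicate 2, the second with the piRNA total, the upper quartile and the authors' total. In rno_piR_035901, with 1 and 13 reads at 48h and 19 and 27 at 168h, the log2 fold change was 2.78, lost in the same 3 scalings and without pre_PH replicate 4, 24h replicate 1 or 168h replicate 2.

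One of the 8, rno_piR_015359, had unequal 48h libraries. It was at 923 and 3904 normalised CPM there and at 18206 and 13824 at 168h. The log2 difference was 2.73 ± 0.74 (SE; adjusted p = 0.0078, edgeR), which was lost with the authors' total and without pre_PH replicate 4. The remaining 4 were rno_piR_000562, rno_piR_000753, rno_piR_005791 and rno_piR_000699, with log2 fold changes of 2.59, 2.50, 2.21 and 1.70. Of these, rno_piR_000562 passed with any library left out and was lost only with the piRNA total among the scalings. The rise of rno_piR_000699, the smallest, passed in 1 of the 5 other scalings.

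**Figure D2:**
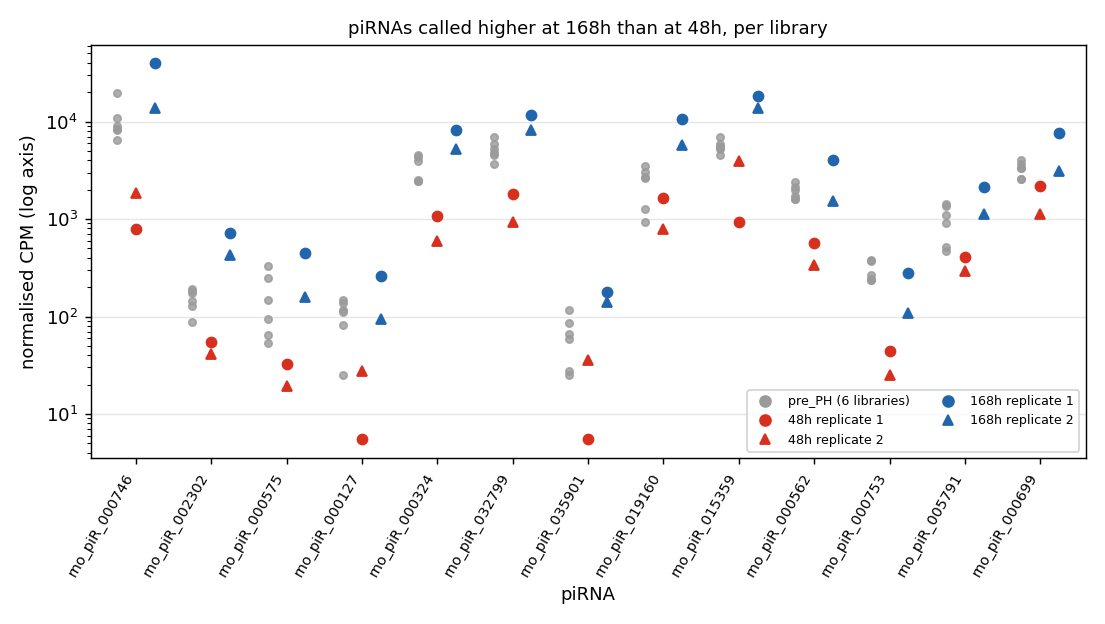
Normalised CPM (log axis) of the 13 piRNAs called higher at 168h, per library, with the 6 pre_PH libraries in grey, 48h in red and 168h in blue (circle, replicate 1; triangle, replicate 2). In each piRNA both blue points lie above both red ones, and in rno_piR_000746 the 168h libraries stand at 39448 and 13929 against 797 and 1870 at 48h.

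Among the falls, rno_piR_031043 was the one abundant species. It stood at 15828 and 19533 normalised CPM at 48h and at 1889 and 1119 at 168h. The groups were far apart relative to the spread within each, and the fitted log2 change was -3.56 ± 0.70 (SE; adjusted p = 0.0017, edgeR). Reads numbered 2881 and 7039 at 48h and 201 and 214 at 168h. In RPM the fall was from 139 and 224 to 6.48 and 7.79, a ratio of means of 25.4.

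A further 4 falls were of piRNAs that the other 10 libraries alone would have brought into the test. The level of rno_piR_002100 was 494 and 319 normalised CPM at 48h and 37.6 and 62.8 at 168h (log2 fold change -2.97 ± 0.80, edgeR adjusted p = 0.0078). That of rno_piR_004937 was 1417 and 463, then 188 and 146 (-2.49 ± 0.79, edgeR adjusted p = 0.018). For rno_piR_010458 the values were 374 and 239, then 9.40 and 41.8 (-3.43 ± 1.11, edgeR adjusted p = 0.020). Each of these 3 was lost when replicate 1 of either time was left out, and the last also without pre_PH replicate 6, 24h replicate 2 or 48h replicate 2 and with TMM computed without the 10 most abundant piRNAs. The fourth, rno_piR_005633, was at 956 and 1962, then 564 and 105 (-2.14 ± 0.78, edgeR adjusted p = 0.033), and was lost without 48h replicate 2 or either 168h library.

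The other 12 falls were of rare piRNAs that entered the test through the 48h libraries, since none of them would have been tested on the other 10 libraries. A fall, and a large one, is what such an entry favours, so their number and the sizes of their ratios are given only as a description. Unseen at 168h, rno_piR_030575 had 30 and 45 reads at 48h, and its rate was at least 13.7-fold lower at 168h, taking 3 reads over the group as the limit. With 70 and 63 reads at 48h and 0 and 2 at 168h, rno_piR_028365 had a 48h to 168h ratio of 36.5 (95% counting interval 9.90 to 304). For rno_piR_033815, with 57 and 42 then 0 and 2 reads, it was 27.2 (7.32 to 227).

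Of the same 12, those with 1 to 3 reads at 168h included rno_piR_007474 (22 and 39, then 0 and 2 reads, ratio 16.7, 95% counting interval 4.44 to 141) and rno_piR_011266 (28 and 44, then 1 and 2, ratio 13.2, 4.33 to 65.3). The ratio was 11.8 (3.07 to 101) for rno_piR_037601, 10.7 (2.77 to 91.5) for rno_piR_003606 and 9.51 (3.08 to 47.6) for rno_piR_010141. It was 25.8 (4.41 to 1040) for rno_piR_035899 and 21.9 (3.72 to 888) for rno_piR_008114, with 1 read each at 168h. Only 2 of the 12 had more than 3 reads at 168h, rno_piR_034827 (135 and 82, then 3 and 5) and rno_piR_024382 (65 and 36, then 4 and 1). Leaving out 168h replicate 1 ended all 12 calls, and leaving out 48h replicate 1 ended 11, the exception being rno_piR_030575.

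**Figure D3:**
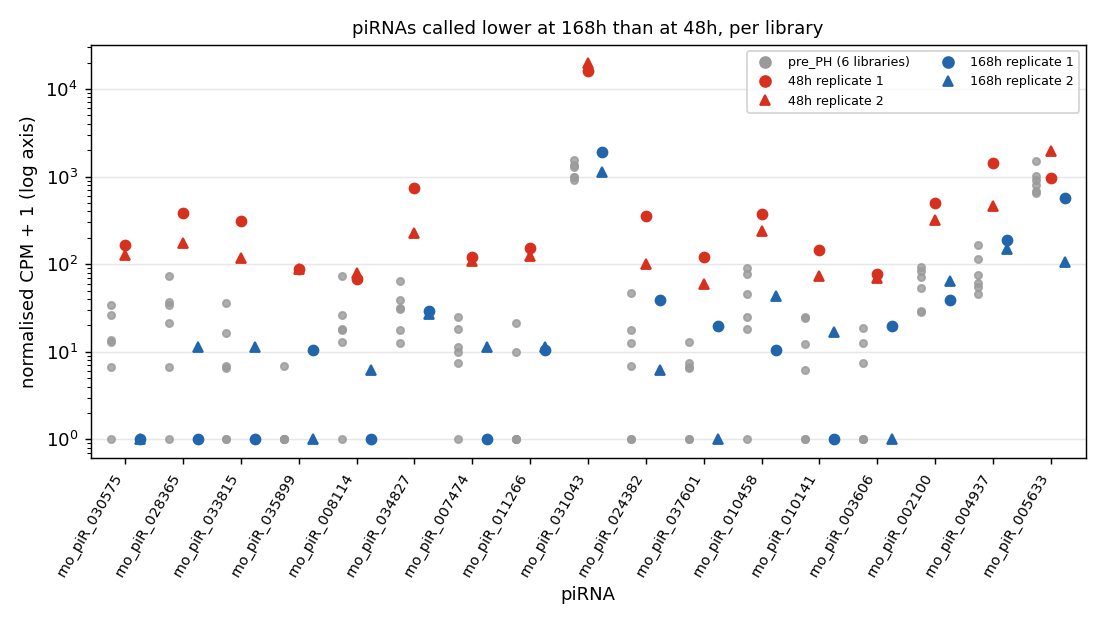
Normalised CPM + 1 (log axis) of the 17 piRNAs called lower at 168h, per library, with colours and symbols for pre_PH (grey), 48h (red) and 168h (blue). Points at 1 are libraries with no read of that piRNA, and rno_piR_031043 stands above the others at 15828 and 19533 CPM in the 48h libraries.

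As a description, since the lists were drawn from this comparison, the 13 risers held 1.44% and 1.44% of piRNA reads at 48h and 8.73% and 7.00% at 168h, and the 17 fallers 3.28% and 3.42%, then 0.237% and 0.204%. Without rno_piR_031043 the other 16 fallers held 0.900% and 0.619%, then 0.0775% and 0.0585%. In RPM the risers went from 83.9 and 115 to 356 and 374, and the fallers from 191 and 273 to 9.64 and 10.9.

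A second deposited column gave how many distinct sequences make up the reads of a piRNA. This number cannot exceed the reads, and 11 of the 17 fallers had 5 or fewer reads at 168h. For those, fewer distinct sequences at 168h largely restate the call. In 16 of the 17 fallers both 168h libraries had fewer distinct sequences than both 48h libraries, as in 24 of the 50 piRNAs not called and 1 of the 13 risers. For rno_piR_033815 the numbers were 23 and 26 at 48h and 0 and 1 at 168h, and for rno_piR_002100 they were 27 and 35, then 3 and 7. The exception was rno_piR_031043, whose 2881 and 7039 reads at 48h came from 27 and 30 distinct sequences, while 201 and 214 reads at 168h came from 28 and 24. With distinct sequences in place of reads its log2 change was 0.36 and was not called. The sham-operated libraries had 19 to 26 for it.

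In 4 of the 13 risers, rno_piR_000324, rno_piR_000562, rno_piR_000746 and rno_piR_032799, both 168h libraries had more distinct sequences than both 48h libraries, as in 1 of the 50 piRNAs not called and 0 of the fallers. Over the 13 risers, the ratio of means at 168h to 48h, with 1 added to each, had a median of 1.12 and a range of 0.890 to 1.5, against a median of 0.176 in the fallers and 0.731 in the 50 piRNAs not called. In rno_piR_000746 145 and 674 reads at 48h came from 21 and 22 sequences and 4197 and 2663 reads at 168h from 29 and 34. The reads of rno_piR_000127 came from 1 sequence in each of the 4 libraries. Summed over the 13, distinct sequences numbered 128 and 142 at 48h and 152 and 150 at 168h. A count of distinct sequences is bounded by the sequences that can match a name and grows with reads, so the 2 columns are not independent.

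**Figure D4:**
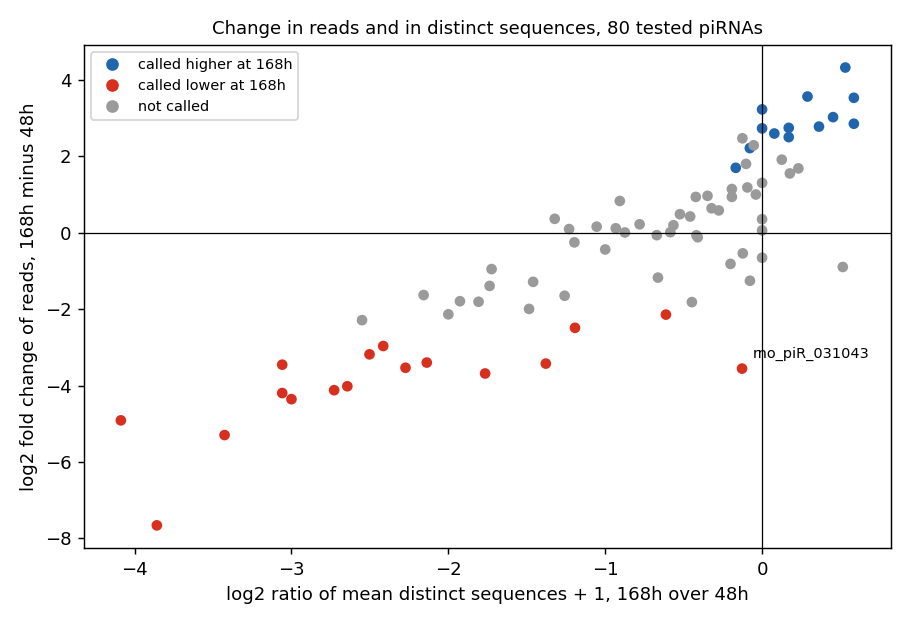
Log2 fold change of reads from 48h to 168h (vertical axis) against the log2 ratio of mean distinct sequences + 1 at 168h over 48h (horizontal axis), for the 80 tested piRNAs. The called falls (red) lie to the left apart from rno_piR_031043, which is near 0 on the horizontal axis, and the called rises (blue) lie near or just right of 0.

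The dominant piRNAs did not pass the test in this step. The 10 most abundant by mean share over the 12 libraries held 91.1% and 89.1% of piRNA reads at 48h and 85.9% and 90.4% at 168h, so the groups overlapped (exact two-sided permutation p = 0.667, where the smallest possible with 6 splits is 0.333). None of the 10 was called. The most abundant, rno_piR_000685, held 23.3% and 24.9% at 48h, and the 168h libraries lay on either side of these with 43.8% and 17.7%. In the same way rno_piR_005567 held 10.7% and 17.1%, then 3.80% and 41.5%. At 48h rno_piR_005901 held 21.0% and 7.32%, and at 168h 3.37% and 10.6%, with all its reads in each library from 1 distinct sequence.

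Of the 10, 3 did not overlap between the times, against 47 of the 80 tested (58.8%). On the normalised scale rno_piR_004288 was at 29507 and 19322 CPM at 48h and at 180991 and 57107 at 168h, a log2 fold change of 2.29 ± 0.93 (SE), just outside the threshold (edgeR adjusted p = 0.058). The values of rno_piR_005359 were 16339 and 3938, then 49224 and 21315 (1.799 ± 0.83, edgeR adjusted p = 0.089). Those of rno_piR_005556 were 71601 and 107264, then 62166 and 12632 (-1.26 ± 1.26, edgeR adjusted p = 0.47). The other 5, rno_piR_005900, rno_piR_005787, rno_piR_008639, rno_piR_000030 and rno_piR_005901 as above, had fitted log2 changes between -1.18 and -0.12 with SEs of 0.79 to 1.43, and those of rno_piR_005900 and rno_piR_005901 turned positive with TMM computed without the 10 most abundant. Next to the threshold after rno_piR_004288 were rno_piR_000693 (log2 fold change 2.47, edgeR adjusted p = 0.062) and rno_piR_033824 (1.68, edgeR adjusted p = 0.063).

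By abundance, the 20 highest by mean share had 6 rises, 1 fall and 13 not called. Over all 80 tested, 16.2% rose and 21.2% fell, although only 5 of the 17 falls would have been tested without the 48h libraries. The median log2 fold change of the 20 was 0.76, against 0.01 over all 80. With the authors' library total the medians were -0.55 and -1.17. The 60 piRNAs listed in all 12 libraries had 13 rises, 5 falls and 42 not called, with a median of 0.45, which turned to -0.15 with the piRNA total and -0.86 with the authors' library total. The remaining 20 tested are not summarised, because only 6 of them would have been tested without the 48h libraries. Both lists were drawn from these libraries.

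Fewer piRNA names were detected at 168h than at 48h. At an equal depth of 120844 piRNA reads, the expected number of names with at least 1 read was 328 and 330 at 48h and 149 and 168 at 168h, a ratio of means of 2.07. Both 168h libraries lay below both 48h libraries, which with 2 against 2 gives the smallest exact two-sided permutation p that 6 splits allow, 0.333. The means of 329 and 159 names lay further apart than the spread of the 6 pre_PH libraries, 143 ± 31.7 (SD, n = 6). With at least 10 reads required, the numbers were 82.0 and 70.3 against 58.6 and 53.4. Names listed with a single read numbered 109 and 173 at 48h and 36 and 43 at 168h.

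Names seen at one time only were mostly from 48h. Both 48h libraries and neither 168h library listed 85 names, while both 168h libraries and neither 48h library listed 2. The bases were 239 names listed in both 48h libraries and 95 in both 168h libraries, at depths that were not equalised. The 85 held 278 and 321 reads, 0.230% and 0.128% of piRNA reads at 48h, and 52 of them were also seen in pre_PH or at 24h. The most read after rno_piR_030575, named here after their values were seen, were rno_piR_037933 with 25 and 10 reads and rno_piR_010733 with 18 and 11. Neither passed the count filter, so they were not tested. The 2 in the opposite direction were rno_piR_008668 (7 and 3 reads at 168h) and rno_piR_013692 (6 and 3).

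**Figure D5:**
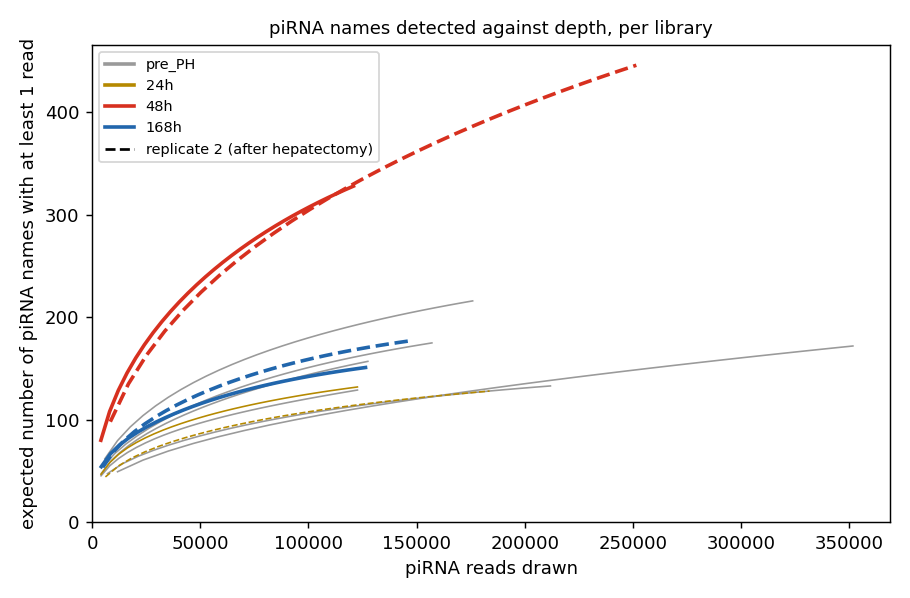
Expected number of piRNA names with at least 1 read (vertical axis) against the piRNA reads drawn from each library (horizontal axis), for all 12 libraries (solid, replicate 1 and pre_PH; dashed, replicate 2 after hepatectomy). The 48h curves (red) reach 328 and 330 at 120844 reads, above the 168h curves (blue) at 149 and 168, which run among those of pre_PH (grey).

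The share of library reads that were piRNA reads was 0.583% and 0.800% at 48h and 0.408% and 0.535% at 168h. Both 168h libraries were below both 48h libraries, with a difference of -0.55 on the log2 scale (exact two-sided permutation p = 0.333, the smallest possible), and the 6 pre_PH libraries alone ran from 0.478% to 1.25%. The difference was -0.32 with 48h replicate 2 left out and -0.35 with 168h replicate 1 left out. Scaled to library reads in the way RPM is, the number of distinct piRNA sequences was 104 and 97.1 at 48h and 48.5 and 50.1 at 168h, against 44.7 to 59.7 in pre_PH. Unscaled, it was 2159 and 3057 at 48h and 1505 and 1375 at 168h. This number need not grow in proportion to reads, and it was not computed at equal depth.

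Set beside sham-operated liver, most fallers lay above the pre_PH range at 48h, while the position of the risers moved with the scale. These positions reuse the 48h libraries that chose the piRNAs and are a description only. Of the 17 fallers, 15 had both 48h libraries above the pre_PH range of normalised CPM, against 35.0% of all tested, and 11 had both 168h libraries within it, against 37.5%. Among these 11, only rno_piR_034827 and rno_piR_002100 had a range starting above 0, at 11.5 and 27.1. For the rest of the 11 no library could lie below the range, on either scale. In RPM all 17 fallers were above the range at 48h and 16 within it at 168h (40.0% and 58.8% of all tested). For rno_piR_031043, for example, pre_PH ran from 916 to 1525 normalised CPM. The exception in RPM, rno_piR_005633, was below the range at 168h on both scales, as were 3.75% of all tested in normalised CPM and 10.0% in RPM, and stood at 564 and 105 normalised CPM against 645 to 1506 in pre_PH.

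Of the 13 risers, 10 had both 48h libraries below the pre_PH range of normalised CPM, against 18.8% of all tested. In RPM 6 of the 13 did, against 10.0%, and in rno_piR_015359 1 of the 48h libraries was above the range. At 168h 6 had both libraries above the range of normalised CPM, against 15%. These 6 were rno_piR_015359, rno_piR_019160, rno_piR_035901, rno_piR_032799, rno_piR_000324 and rno_piR_002302. In RPM 4 of the 6 remained above, all but rno_piR_032799 and rno_piR_000324, against 12.5% of all tested. The clearest was rno_piR_002302, at 724 and 424 normalised CPM against 88.9 to 191 in pre_PH. Both 168h libraries of rno_piR_000753 were within or below the pre_PH range of 234 to 379, at 282 and 110, and in RPM both were below it.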

How the data were processed

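Small RNA was sequenced from 12 rat liver libraries (TruSeq small RNA kit, HiSeq, per the labels' protocols). The authors deposited, per library, read counts per piRNA name and counts of distinct sequences, both unnormalised per the file headers, and 2 percent columns relative to all reads and to piRNA-mapped reads. Dividing the deposited read count by the percent gave 1 library total. CASAVA 1.8, cutadapt, DESeq 1.14.0 and rn4 appear in the submitters' processing notes with no role stated. The aligner, its mismatches and its handling of reads matching several names were not given in the sources used here, so near-identical names may share reads. Listed reads were 99.2% to 99.9% of the piRNA-mapped total.

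Counts of all 12 libraries in 4 groups were fitted with edgeR 4.0.16 in R 4.3.3 (robust quasi-likelihood, TMM, filterByExpr, which left 80 of 701 names). The SE is the log2 fold change over the square root of F. Replicates differed beyond sampling noise in chi-square tests. The code was tested on simulated data. Alternatives used DESeq2 1.42.0 and limma 3.58.1. Detection at equal depth is the hypergeometric expectation. Named piRNAs were the 15 largest non-overlapping rises and falls called, the 10 most abundant and the 3 next by p, and beyond that rule the 2 smallest falls, rno_piR_004937 and rno_piR_005633, were named after their values were seen. Members and lists were chosen with earlier results of these data known.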

Additional observations from a re-analysis of the deposited data

Results flagged for a closer look

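In pre_PH, which serves here for spread and reference, 1 of the 6 libraries stood apart from the other 5 for 6 of 45 values checked. Chance gives about 1 in 20 only where values are normally distributed, a condition that read counts need not meet. In replicate 3 the values standing apart were rno_piR_005787 at 232048 normalised CPM, rno_piR_000030 at 105618 and rno_piR_035899 at 5.92. The last was a single read where the other 5 libraries had 0, so any read would stand apart. In replicate 5 the values standing apart were rno_piR_008114 at 71.7 and rno_piR_024382 at 46.1. In replicate 6 it was rno_piR_000746 at 19834, still below its level of 39448 in 168h replicate 1 and above the 13929 in replicate 2. What sets these libraries apart was not tested.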

How the results depend on the processing

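Depth limits the falls, 11 of the 17 of which rest on 5 reads or fewer in both 168h libraries together, and the numbers called moved with single libraries. Across the single libraries left out, the calls in all ran from 16 to 35, the rises from 8 to 17 and the falls from 1 to 26, where a lone library left in a group is assumed to vary like the other groups. With no filter on low counts 17 piRNAs were called, 4 of them falls. Requiring a read in all 4 libraries of 48h and 168h gave 13 rises and 9 falls among 87 tested. That rule shuts out every fall with no read in a 168h library. It let 21 of the main fit's calls be tested and kept 20 of them. The 9 falls are a fresh count and not the remainder of the 17. Upper-quartile scaling gave 8 rises, the piRNA total 7, and the authors' library total 7 rises and 26 falls. The 4 libraries fitted alone gave 6 rises. Distinct sequences in place of reads, with 39 piRNAs tested, gave 5 calls, 1 rise and 4 falls, and the log2 fold change of rno_piR_031043 turned to 0.36. The DESeq2 test called 13 rises and 24 falls, and limma-voom 14 and 17. The difference in share of the 10 most abundant, -1.93 percentage points, ran from -4.18 to 0.32 with a library left out, and became 4.74 for the 3 highest and 1.05 for the 20 highest. The settings also differ in the libraries they hold and in the piRNAs tested. These numbered 80 in the main fit, 39 with distinct sequences, 108 without 168h replicate 1 and 701 with no filter, so the counts called have unlike denominators. The cause of these shifts was not tested.

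Whether the replicate numbers pair the libraries cannot be settled from 2 libraries a time. Deviations of same-numbered libraries correlated at 0.19 between 24h and 48h, 0.14 between 24h and 168h and -0.20 between 48h and 168h. A replicate block over the 6 libraries after hepatectomy kept 27 of the 30 calls (12 rises, 15 falls). Over the 4 libraries alone, with 1 residual degree of freedom, the replicate block left 1 call in all, with 0 rises and 1 fall (edgeR, 25 at an unadjusted p under 0.05). The crossed pairing, added after seeing the data, gave 12 calls, 6 rises and 6 falls. Of the single piRNAs named, counting all alternatives, 994 values kept their side of the threshold (20 of these, all of uncalled piRNAs, changed sign), 178 no longer passed, 14 newly passed and 1 reversed, that of rno_piR_031043.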
